A study of Mus musculus with 20 samples.

Results

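The comparison described here is that of ES cells after 48h of Gata4 induction with ES cells after 24h of it, taken across all genes. Its members are the 4 single-cell libraries labelled ES, 24h and ES, 48h, a replicate 1 and a replicate 2 of each, and in every library the unique molecular identifiers (UMIs, one for each captured mRNA molecule) were summed over cells with at least 500 detected genes. That left 22839 cells in the 4 libraries, of 113288 cells in the 20 libraries of the series. Both groups came from one mouse ES line with the label genotype Col1A1TetO-Gata4/+; R26M2rtTA/+; Gata6H2B-Venus/+, in which doxycycline switches on a Gata4 transgene and 1 Gata6 allele reports as a nuclear fluorescent protein. The source that the paper cites for this Gata6 allele names it a loss-of-function allele as well. The cells were grown in serum and LIF with 2 µg/ml doxycycline for 24 or 48 hours, and neither group was sorted. The same line was also profiled before doxycycline (ES), at 9h (sorted, then mixed again) and as iXEN, endoderm-like cells newly made by transient doxycycline and collected 7 days after its withdrawal, and those 6 libraries enter the fit and are used as points of reference. The paper describes the transgene as a fusion of Gata4 with mCherry. How much of the transgene's mRNA enters the 3′ counts of Gata4 was not tested, so these counts do not measure the induction itself. The study describes its duplicates as technical, so that p-values measure only the spread between libraries, and at 24h and 48h, but not in the other conditions, replicate 1 and replicate 2 are of different sequencing projects.

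Gata4 and Gata6 are zinc-finger transcription factors that direct cells of the early embryo to primitive endoderm, the extraembryonic layer that forms beside the pluripotent epiblast. Primitive endoderm gives rise to parietal endoderm, which lays down a thick basement membrane of laminin and type IV collagen, and to visceral endoderm, an absorptive epithelium that takes up maternal proteins through the receptors megalin and cubilin and degrades them in lysosomes. In the embryo the choice between epiblast and primitive endoderm depends on FGF4 made by epiblast cells and acting through ERK, while Nodal and its antagonists of the Lefty family mark the pluripotent side.

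The 24h libraries held 5482 (replicate 1) and 3329 (replicate 2) cells and 62840791 and 59392835 UMIs, and the 48h libraries 6053 and 7975 cells and 57856321 and 87391119 UMIs. The median cell had 10322.5 and 16585 UMIs at 24h against 8466 and 10007 at 48h, and mitochondrial genes took between 2.12% and 2.56% of the UMIs in all 4. Any 2 of the 4 libraries shared 29 to 66 cell barcodes, at most 1.14% of the smaller library. The labels were checked against marker genes. Gata4, counted with an unknown part of the transgene's mRNA, stood at 0.382 and 0.157 CPM in ES and 3.90 and 3.18 CPM (UMIs of the gene per 1000000 UMIs of the library, after TMM scaling) at 9h. It stood at 46.7 and 28.9 CPM at 24h and 83.5 and 119.5 CPM at 48h, here and below with replicate 1 given before replicate 2. The pluripotency factor Pou5f1 was at 566 and 615 CPM and then 587 and 641 CPM, so that cells of both times still carried the mRNA of the starting state. Markers of mesoderm, neuroectoderm and fibroblasts summed to at most 7.30 CPM per list in each of the 4 libraries.

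Of 15723 genes tested, 1675 were called, that is, had an adjusted p under 0.05 and at least a 2-fold change (edgeR's quasi-likelihood test with the sequencing project as a block, here and for every adjusted p below). This is 10.7% of the genes tested, with 878 (5.58%) higher and 797 (5.07%) lower at 48h, and the median log2 fold change over all genes was 0. All 1675 called genes moved in the same direction in both replicate pairs, which the choice of genes by a paired test and a 2-fold limit favours in itself. In 1658 of them both 48h libraries lay on one side of both 24h libraries, as in 55.2% of all genes tested, and this holds for each called gene named below. Among genes with a mean of at least 50 CPM the calls were mostly increases, 126 higher against 33 lower, while 457 of the called genes had a mean under 1 CPM. The change was larger in replicate 2. For 1275 of the called genes (76.1%) the replicate 2 pair moved further than the replicate 1 pair, and over the 6825 genes with at least 10 CPM the log2 differences had a standard deviation of 0.567 in replicate 1 and 0.743 in replicate 2. With 1 of the 4 libraries left out, the block leaves its partner without weight, and the fit compares 48h with 24h in the other replicate alone. Leaving out either library of a replicate thus gives the same comparison, and its spread comes from the other conditions only. The number of calls rested on the replicate 2 libraries: with the 24h library of replicate 2 left out 23 genes were called, and with the 48h library of replicate 2 left out 3 (Cubn, Pth1r and Sord), against 1205 and 1223 without the 24h or the 48h library of replicate 1. At an unadjusted p under 0.05 the counts without these replicate 2 libraries were 2756 and 2733 genes.

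**Figure D1:**
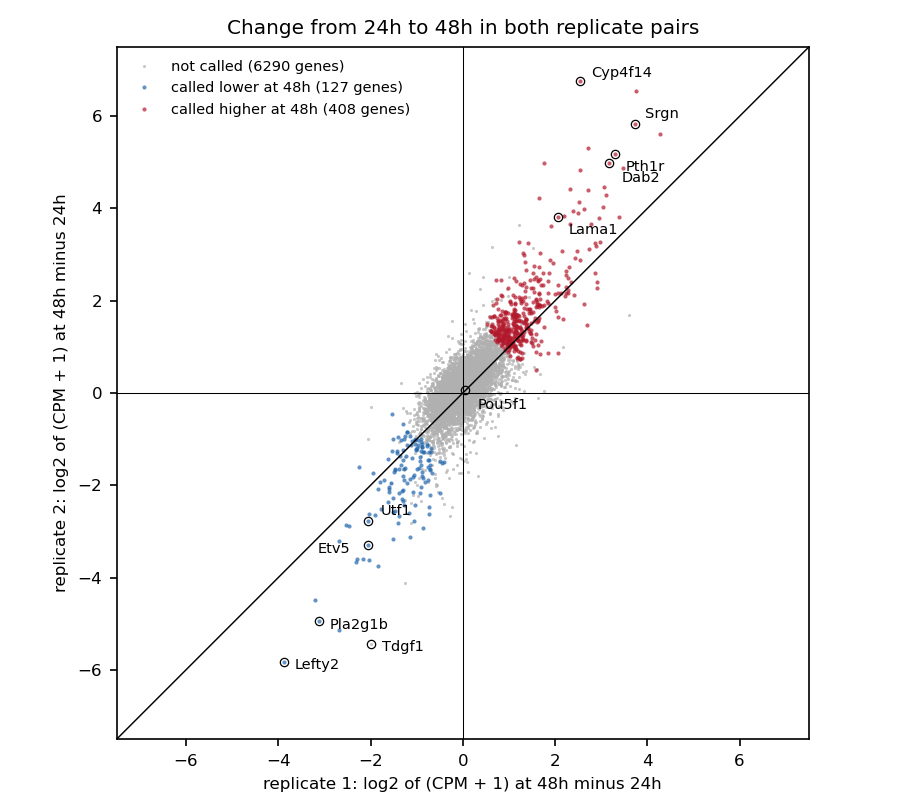
Each point is a gene with a mean of at least 10 CPM. The x axis gives its log2 difference (of CPM + 1) between 48h and 24h in replicate 1 and the y axis that in replicate 2, with the 408 genes called higher in red, the 127 called lower in blue and the 6290 not called in grey. The called genes lie on the same side of 0 on both axes, and most of them lie further from 0 on the y axis than on the x axis.

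The largest increases among well-expressed genes included markers of parietal endoderm and chains of laminin and type IV collagen, and the largest decreases both Lefty genes and Utf1. The 14 highest called genes with a mean of at least 50 CPM were, from the largest fold change, Cyp4f14, Srgn, Pth1r, Dab2, Col4a2, Col4a1, Lamb1, Lama1, Fabp3, Fabp3-ps1, Pdcd4, Htra1, Ctsl and Pcbd1. Fabp3-ps1 is a pseudogene that can take reads of Fabp3, and its value is uncertain. The 14 lowest were Lefty2, Pla2g1b, Lefty1, Utf1, Chchd10, Fam25c, Slc1a3, Phlda2, Mthfd2, Mylpf, Mkrn1, Bex1, Gsta4 and Psat1. Of these, Fabp3-ps1 and Fam25c were not called in the fit of all 20 libraries, nor Bex1 without the replicate block.

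Cyp4f14, a cytochrome P450 of the leukotriene and fatty acid hydroxylase family, had the largest increase of these genes. It was at 10.6 and 1.16 CPM at 24h and 66.7 and 234 CPM at 48h, a log2 fold change of 4.99 ± 1.14 (± SE, here and below; adjusted p = 0.0265). The 48h libraries were above both 24h libraries, with the replicate 2 pair opening much further than that of replicate 1. At the other end, Pla2g1b, a secreted phospholipase A2, fell from 102 and 92.9 CPM to 10.9 and 2.06 CPM (-4.33 ± 0.57, adjusted p = 0.00478), and the groups did not overlap. The windows from 250 bases before to 50 bases from the transcription start of the pair of highest and the pair of lowest of these genes that have an entry in the RefSeq promoter table used (GRCm38.p6, first entry where a gene has several) are given below, since these genes moved furthest. That table covers 11624 of the 15723 genes tested, and Lefty2 and Lefty1 have no entry in it. They lie at chr17:32917307-32917606 on the minus strand (Cyp4f14), chr10:62527396-62527695 on the minus strand (Srgn), chr5:115465892-115466191 on the plus strand (Pla2g1b) and chr7:139943606-139943905 on the plus strand (Utf1), each is written 5′ to 3′ on its gene's strand, and the 1 capital marks the first transcribed base.
Cyp4f14: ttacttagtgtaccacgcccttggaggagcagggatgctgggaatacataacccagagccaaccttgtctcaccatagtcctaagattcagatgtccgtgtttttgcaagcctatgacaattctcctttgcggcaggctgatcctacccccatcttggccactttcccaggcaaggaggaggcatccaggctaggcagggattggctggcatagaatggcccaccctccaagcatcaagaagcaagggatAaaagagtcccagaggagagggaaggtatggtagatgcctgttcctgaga
Srgn: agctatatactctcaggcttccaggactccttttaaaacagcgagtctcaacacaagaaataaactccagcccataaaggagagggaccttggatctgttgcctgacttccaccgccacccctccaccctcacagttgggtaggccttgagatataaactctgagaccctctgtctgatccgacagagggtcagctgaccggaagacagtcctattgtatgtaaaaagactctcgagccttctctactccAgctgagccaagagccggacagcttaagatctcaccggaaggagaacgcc
Pla2g1b: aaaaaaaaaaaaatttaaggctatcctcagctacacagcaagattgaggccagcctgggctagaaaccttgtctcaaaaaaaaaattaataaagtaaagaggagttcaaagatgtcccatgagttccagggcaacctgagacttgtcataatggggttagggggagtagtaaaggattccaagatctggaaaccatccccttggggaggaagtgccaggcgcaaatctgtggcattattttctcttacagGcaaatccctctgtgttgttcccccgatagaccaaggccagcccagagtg
Utf1: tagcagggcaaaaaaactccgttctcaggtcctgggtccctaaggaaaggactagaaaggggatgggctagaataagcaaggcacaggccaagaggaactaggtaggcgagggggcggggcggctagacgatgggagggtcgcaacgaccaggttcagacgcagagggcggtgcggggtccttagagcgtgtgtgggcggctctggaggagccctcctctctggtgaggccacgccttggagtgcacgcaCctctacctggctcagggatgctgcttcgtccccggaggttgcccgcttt
None of these 4 windows held AGATAA or TGATAA, the letters that GATA factors are known to bind, on either strand. Over all 14830 RefSeq windows of genes tested, 10.6% held at least 1 such stretch, against 11.5% of 875 windows of genes called higher and 10.7% of 727 windows of genes called lower, and 18.6% of all 32851 windows in the table. A match is a description of the letters only.

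The regulators of primitive endoderm all had log2 fold changes above 0, but Gata4 and Gata6 did not pass the test. Of the 14 genes of the list, 5 were called higher, against 5.58% of all genes tested. The median log2 fold change was 1.56 over the list and 0 over all genes tested. Gata4, at 46.7 and 28.9 CPM and then 83.5 and 119.5 CPM, did not pass the test (1.44 ± 0.46, adjusted p = 0.0703). Gata6, at 67.9 and 28.3 CPM and then 83.1 and 99.4 CPM, did not pass either (1.05 ± 0.48, adjusted p = 0.181). For both genes the 48h libraries lay above both 24h libraries, and the step was small in replicate 1 (log2 differences of 0.83 and 0.29) and larger in replicate 2 (2.01 and 1.78). Sox17, an endoderm transcription factor, was at 17.6 and 4.54 CPM and 52.6 and 48.1 CPM (2.47 ± 0.71, adjusted p = 0.0535), and the forkhead factor Foxa2 at 8.52 and 1.46 CPM and 21.3 and 29.6 CPM (2.74 ± 0.81, adjusted p = 0.0579). Sox17 and Foxa2 missed the threshold narrowly. Their groups, like those of Gata4 and Gata6, did not overlap, as in 55.2% of all genes tested. DESeq2 called 9 members of the list where edgeR called 5.

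Dab2, an adaptor for clathrin-dependent uptake that is an early mark of sorted primitive endoderm, gave the largest change of this list. It was at 24.3 and 7.63 CPM at 24h and 226 and 272 CPM at 48h (4.18 ± 0.53, adjusted p = 0.00434). Both 48h libraries were close to each other and far above the 24h libraries, and iXEN stood at 389 and 410.1 CPM. Pdgfra, the receptor by which primitive endoderm is often recognized, went from 43.2 and 25.2 CPM to 78.5 and 111 CPM (1.5 ± 0.32, adjusted p = 0.0224), with iXEN at 80.1 and 123 CPM. Hnf4a, a nuclear receptor of visceral endoderm, was low throughout, at 0.855 and 0.615 CPM and 3.31 and 6.64 CPM (2.68 ± 0.45, adjusted p = 0.0108). Cited1, a transcriptional co-regulator, moved from 0.618 and 0.781 CPM to 4.17 and 6.29 CPM (2.89 ± 0.36, adjusted p = 0.00413), still far under its 157 and 235 CPM in iXEN. In ES, Cited1 had been at 5.15 and 2.75 CPM, near its 48h level. In neither Hnf4a nor Cited1 did the 24h and 48h libraries overlap. Of the 15 RefSeq windows of this list's genes, 4 held AGATAA or TGATAA. The Dab2 window at chr15:6299539-6299838 (plus strand) is one of them and is shown because Dab2 leads the list, with its 2 matching stretches in capitals, the first 179 bases before the start site; it was chosen after the values were seen.
Dab2: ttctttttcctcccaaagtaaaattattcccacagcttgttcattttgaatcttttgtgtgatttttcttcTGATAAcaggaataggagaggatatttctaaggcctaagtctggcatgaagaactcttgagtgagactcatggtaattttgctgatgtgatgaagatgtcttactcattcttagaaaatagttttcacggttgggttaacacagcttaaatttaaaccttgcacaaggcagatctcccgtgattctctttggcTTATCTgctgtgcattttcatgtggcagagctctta

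**Figure D2:**
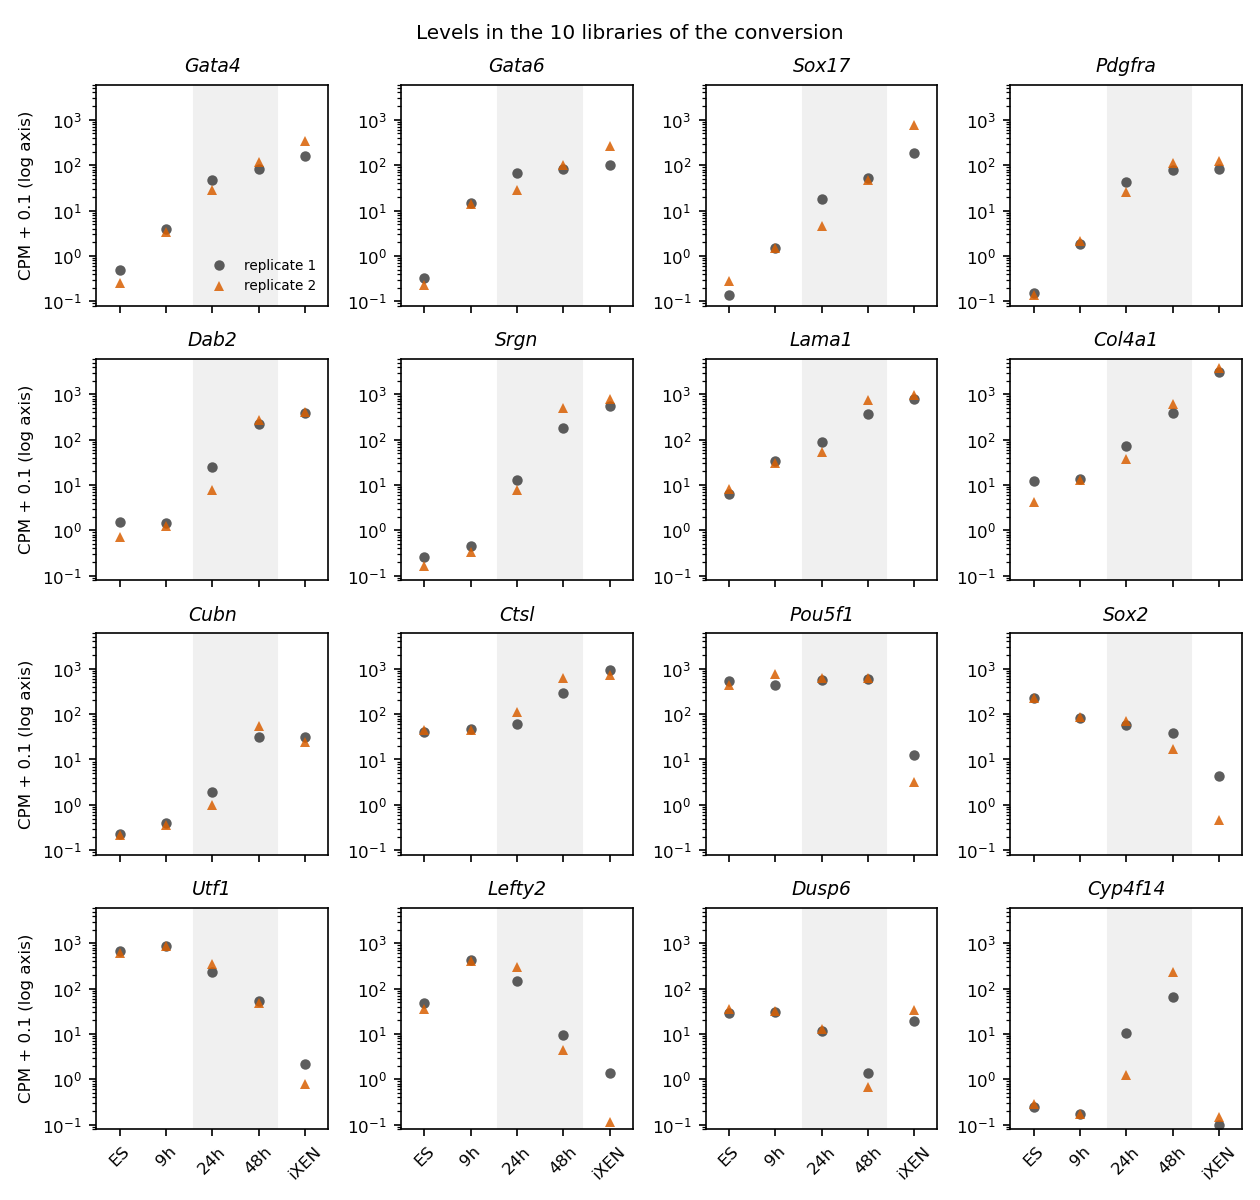
Each panel shows 1 gene in the 10 libraries of the conversion, with the condition on the x axis (ES, 9h, 24h, 48h, iXEN) and CPM + 0.1 on a log y axis. Circles are replicate 1, triangles are replicate 2, and the shaded band marks the 24h and 48h libraries. Srgn, Dab2, Cubn and Cyp4f14 rise steeply inside the band, Pou5f1 stays between 566 and 641 CPM there and Lefty2 and Dusp6 drop.

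Summed UMIs cannot tell fewer cells of a type from less RNA per cell, so the share of cells with at least 1 UMI was also counted after thinning every cell to 2000 UMIs, which removed the depth difference (195 to 681 shallower cells per library were left out). Gata6 was then found in 11.4% and 5.09% of cells at 24h and 12.9% and 15.96% at 48h, and Pdgfra in 8.08% and 4.51% and then 12.6% and 17.9%. Dab2 was found in 4.14% and 1.22% of cells and then in 29.7% and 36.2%, and the laminin Lama1 in 14.3% and 10.2% and then in 42.5% and 65.7%. For all 4 genes the lower 48h library was above the higher 24h library, narrowly for Gata6 and widely for Dab2 and Lama1. Pou5f1 was found in 66.6% and 69.8% of cells at 24h and in 64.0% and 67.2% at 48h, values that overlap. Cells with both Gata6 and Pou5f1 made up 7.30% and 3.26% at 24h and 8.08% and 10.6% at 48h. In cells of the conversion's ends, Gata6 was found in 0.0267% and 0.0330% of ES cells (median depths 13140 and 13154 UMIs before thinning) and Pou5f1 in 2.27% and 0.623% of iXEN cells (7394.5 and 7441 UMIs). Those cultures held little mRNA of the gene (0.218 and 0.127 CPM for Gata6 in ES, 12.3 and 3.09 CPM for Pou5f1 in iXEN), so that these shares do not give the level of free RNA in the 24h and 48h libraries, and its part in the shares there, those of cells with both genes included, was not tested. Unthinned, the shares at 24h and 48h were 39.8%, 29.5%, 41.4% and 53.8% for Gata6, 19.0%, 10.8%, 66.0% and 80.3% for Dab2, and 97.1%, 97.2%, 94.8% and 96.5% for Pou5f1. With 2 libraries against 2, a two-sided exact permutation test cannot give a p under 0.333, which is the value for Gata6, Pdgfra, Dab2 and Lama1, and gave 0.667 for Pou5f1.

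**Figure D3:**
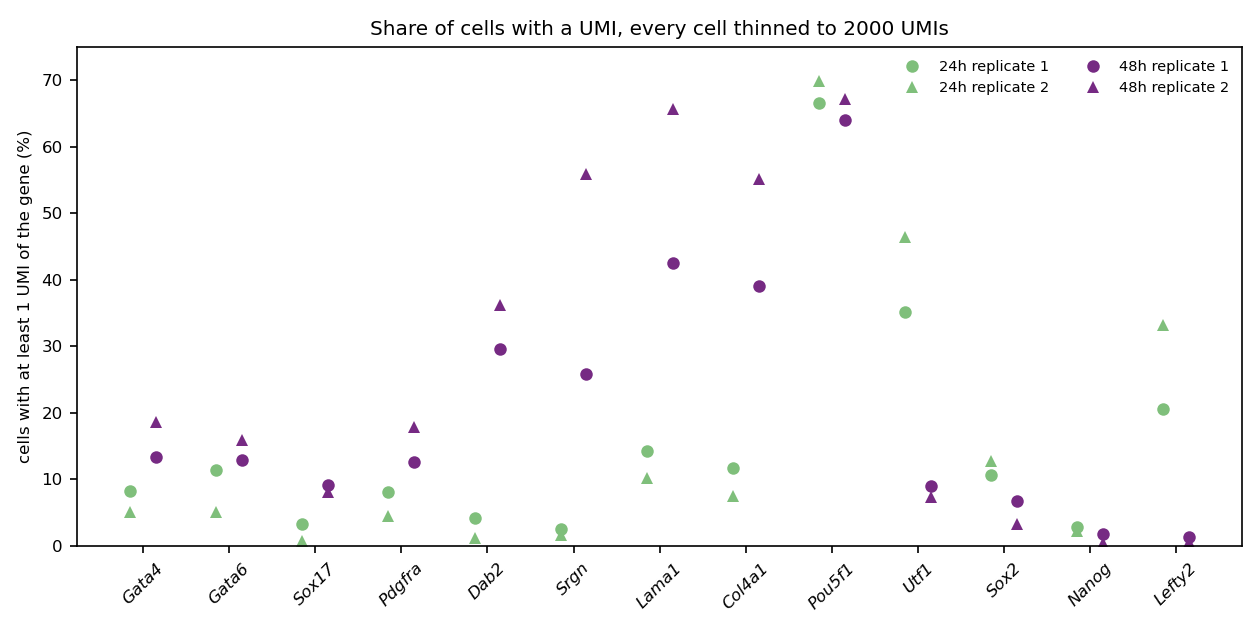
The y axis gives the percentage of cells with at least 1 UMI of the gene named on the x axis, after thinning each cell to 2000 UMIs. Green marks are the 24h and purple marks the 48h libraries, with circles for replicate 1 and triangles for replicate 2. Dab2, Srgn, Lama1 and Col4a1 separate widely between the times, Utf1 and Lefty2 separate in the other direction, and the 4 marks of Pou5f1 lie together between 64.0% and 69.8%.

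Parietal endoderm markers had the highest median of the 30 lists. Of 14 genes, 8 were called higher, against 5.58% of all genes tested. The median log2 fold change was 2.38, and the summed list went from 299.99 and 329 CPM at 24h to 1820.3 and 2403 CPM at 48h. Srgn, the proteoglycan core protein serglycin, was at 12.9 and 7.73 CPM at 24h and 183 and 494 CPM at 48h (4.90 ± 0.57, adjusted p = 0.00316). Pth1r, the receptor for parathyroid hormone-related protein through which parietal endoderm is induced, was at 7.43 and 2.97 CPM and then 81.8 and 143 CPM (4.5 ± 0.47, adjusted p = 0.00251). In both genes every 48h library exceeded every 24h library by at least 10-fold. Pth1r was 1 of the 3 genes still called without the 48h library of replicate 2. Fabp3, a fatty acid-binding protein, rose about equally in both pairs, from 187 and 239.8 CPM to 1377 and 1459 CPM (2.74 ± 0.26, adjusted p = 0.00237). The small heat shock protein gene Cryab rose from 6.62 and 7.35 CPM to 42.0 and 125 CPM (3.38 ± 0.65, adjusted p = 0.0157), follistatin (Fst) from 24.4 and 7.76 CPM to 57.9 and 83.5 CPM (2.33 ± 0.60, adjusted p = 0.0378) and tissue factor (F3) from 5.75 and 2.63 CPM to 15.7 and 28.7 CPM (2.43 ± 0.62, adjusted p = 0.0376). Cryab, Fst and F3 were each at 258 CPM or more in both iXEN libraries, so that their 48h levels lay between those of 24h and iXEN. Cryab had also been at 57.0 and 13.4 CPM in ES, above its 24h level.

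Basement membrane genes changed by component. Of 21 tested genes, 9 were called higher and 2 lower, against 5.58% and 5.07% of all genes tested, with a median of 0.50. The trimer of laminin-111 rose in all its chains: Lama1 from 87.7 and 53.4 CPM to 372 and 760.3 CPM (2.96 ± 0.39, adjusted p = 0.00483), Lamb1 from 87.2 and 42.1 CPM to 401 and 615 CPM (3.03 ± 0.44, adjusted p = 0.00635) and Lamc1 from 170.5 and 160.3 CPM to 544 and 888 CPM (2.07 ± 0.23, adjusted p = 0.0027). The 24h and 48h libraries were apart for each chain. In iXEN Lama1 stood at 775 and 942 CPM and Lamb1 at 543 and 1019 CPM, so that replicate 1 at 48h was below both iXEN libraries in both genes, and replicate 2 lay between them in Lamb1 and just below both in Lama1. The type IV collagen chains Col4a1 (73.0 and 37.8 CPM, then 384 and 599.8 CPM; 3.19 ± 0.55, adjusted p = 0.0117) and Col4a2 (68.9 and 40.8 CPM, then 428 and 659 CPM; 3.32 ± 0.61, adjusted p = 0.0138) moved together, but stood at 3037 and 3873 CPM and 2664 and 2846 CPM in iXEN. Perlecan (Hspg2), Sparc, a collagen-binding glycoprotein, and nidogen (Nid1) were also called higher, with log2 fold changes of 2.04 ± 0.31, 1.92 ± 0.16 and 1.67 ± 0.17. The called decreases were Col18a1, the collagen that gives endostatin, from 32.9 and 30.2 CPM to 13.0 and 4.78 CPM (-1.99 ± 0.52, adjusted p = 0.0392), and the laminin chain gene Lamb3, which stayed under 1 CPM. Col18a1 was not called without the replicate block, nor Lamb3 with DESeq2.

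Col4a1 and Col4a2 are known to be transcribed in opposite directions from a shared promoter, and their RefSeq start sites lie 21 bases apart. The Col4a1 window (chr8:11312777-11313076, minus strand) is shown for this reason, chosen after the values were seen, with capitals for the 78 bases that it shares with the Col4a2 window (chr8:11312555-11312854, plus strand).
Col4a1: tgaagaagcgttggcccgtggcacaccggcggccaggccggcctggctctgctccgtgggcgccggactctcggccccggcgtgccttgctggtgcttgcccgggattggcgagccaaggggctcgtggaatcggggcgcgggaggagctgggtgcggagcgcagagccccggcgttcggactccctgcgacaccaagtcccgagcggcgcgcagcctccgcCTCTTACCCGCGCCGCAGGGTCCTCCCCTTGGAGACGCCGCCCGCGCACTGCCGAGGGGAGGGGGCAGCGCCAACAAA
No window of the 19 RefSeq entries of basement membrane genes held AGATAA or TGATAA, against 10.6% of windows of genes tested. These entries cover 15 of the 22 genes of the list, and Lama1 and Lamc1 are not among them.

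Of 17 genes for enzymes and chaperones that fold and modify collagen, 11 were called higher, against 5.58% of all genes tested, with a median of 1.06. Loxl2 and Fkbp10 were below 0 and not called (-0.89 ± 0.26 and -0.23 ± 0.21). Serpinh1, the collagen chaperone HSP47, was at 232 and 244 CPM and then 722 and 1315 CPM (2.03 ± 0.35, adjusted p = 0.0113), and the prolyl 4-hydroxylase subunit P4ha2 at 9.19 and 12.3 CPM and then 44.3 and 112 CPM (2.73 ± 0.27, adjusted p = 0.00237). The lysyl hydroxylase Plod1 and Crtap, a part of the prolyl 3-hydroxylation complex, had log2 fold changes of 1.82 ± 0.29 and 1.54 ± 0.17 (adjusted p = 0.00934 and 0.00299). All 4 genes had both 48h libraries above both 24h libraries. In the endoplasmic reticulum chaperone list 19 of 20 genes were above 0, with a median of 0.53, and the share called was near the 10.7% of all genes tested. The 2 called were Xbp1, a transcription factor of the unfolded protein response (20.2 and 32.8 CPM, then 44.8 and 92.7 CPM; 1.33 ± 0.15, adjusted p = 0.00304), and the co-chaperone Dnajc3 (16.3 and 8.49 CPM, then 26.0 and 34.4 CPM; 1.34 ± 0.30, adjusted p = 0.0239).

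Genes of endocytosis and of the lysosome were also called higher. Of 14 genes of apical endocytosis, 6 were called higher, against 5.58% of all genes tested, with a median of 1.13. Cubilin (Cubn) was at 1.84 and 0.881 CPM at 24h and 30.6 and 54.5 CPM at 48h (4.96 ± 0.43, adjusted p = 0.00204), and it was called under every alternative. Its log2 fold change was 4.05 without the 24h and without the 48h library of replicate 2, fits that compare the same replicate 1 pair. Its partner megalin (Lrp2) went from 6.92 and 4.95 CPM to 29.6 and 41.1 CPM (2.57 ± 0.25, adjusted p = 0.00237), and Myo6, the motor of endocytic vesicles, from 11.2 and 7.94 CPM to 36.1 and 32.0 CPM (1.84 ± 0.19, adjusted p = 0.00251). The third part of the receptor complex, Amn, was at 12.7 and 6.73 CPM and then 14.1 and 46.1 CPM and did not pass (1.47 ± 0.62, adjusted p = 0.147), with almost no step in replicate 1.

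All 22 lysosomal genes had log2 fold changes above 0, and 17 were called higher, against 5.58% of all genes tested, with a median of 1.39. The cysteine protease Ctsl, which parietal endoderm makes in quantity, rose from 59.1 and 110.3 CPM to 289 and 630.3 CPM (2.40 ± 0.17, adjusted p = 0.00132), and its step was almost the same in both pairs, 2.27 and 2.50 on the log2 scale. Ctsc, a dipeptidyl peptidase, rose from 4.89 and 5.88 CPM to 26.2 and 28.4 CPM (2.34 ± 0.27, adjusted p = 0.00318) and Hexa, a hexosaminidase subunit, from 29.1 and 49.0 CPM to 106 and 198 CPM (1.94 ± 0.26, adjusted p = 0.0053). Cd63, a tetraspanin of lysosomal membranes, went from 97.2 and 112 CPM to 390.1 and 499 CPM (2.08 ± 0.21, adjusted p = 0.00237). None of these 4 genes had overlapping groups. The E-box TCACGTGA, the core of the element known to bind TFEB in lysosomal promoters, was searched on both strands: it was in 2 of 18 RefSeq windows of the list (those of Ctsa and Ctsd) and in 1.58% of 14830 windows of genes tested and 0.974% of all windows. The window of Ctsd, an aspartic protease at 61.4 and 67.7 CPM and then 115 and 161 CPM (1.08 ± 0.19), lies at chr7:142387778-142388077 (minus strand) and is shown as the example, chosen after the values were seen, with the E-box in capitals 99 bases before the start site.
Ctsd: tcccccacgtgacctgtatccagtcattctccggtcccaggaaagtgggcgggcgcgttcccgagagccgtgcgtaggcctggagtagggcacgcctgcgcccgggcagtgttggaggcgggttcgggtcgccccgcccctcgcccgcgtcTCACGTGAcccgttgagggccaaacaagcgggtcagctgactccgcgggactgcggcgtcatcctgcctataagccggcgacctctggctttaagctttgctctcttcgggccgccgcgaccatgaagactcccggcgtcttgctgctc

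Visceral endoderm markers did not move as one. Of 20 tested genes, 4 were called higher and 1 lower, against 5.58% and 5.07% of all genes tested, with a median of 0.19. Ttr and Afp, serum proteins of the mature tissue, were at or near 0: Ttr was at 0 and 0.0166 CPM and then 0.0567 and 0.0499 CPM (against 157 and 407 CPM in iXEN), and Afp had no more than 0.0189 CPM in any of the 4 libraries. Both rest on very few UMIs in these libraries, and neither was called (2.47 ± 2.01 for Ttr and 0.21 ± 1.65 for Afp, adjusted p = 0.445 and 0.949). Ihh, a hedgehog ligand of visceral endoderm, rose from 0.444 and 0.332 CPM to 7.82 and 10.1 CPM (4.52 ± 0.85, adjusted p = 0.0146) and the X-linked homeobox gene Rhox5 from 2.76 and 4.79 CPM to 20.5 and 101 CPM (3.66 ± 0.42, adjusted p = 0.00302). The apolipoprotein gene Apoa2 fell from 32.4 and 24.0 CPM to 12.7 and 4.82 CPM (-1.83 ± 0.25, adjusted p = 0.00524), and Apoe, at 322 and 760.3 CPM and then 418 and 455 CPM, was not called (-0.18 ± 0.25, adjusted p = 0.666) and its groups overlapped.

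Core pluripotency genes differed among themselves. Of the 13 core pluripotency genes, 3 were called lower, against 5.07% of all genes tested, and 4 were above 0, with a median of -0.97. Pou5f1 was between 566 and 641 CPM in all 4 libraries, with overlapping groups (0.06 ± 0.53, adjusted p = 0.959). Sox2 was at 58.2 and 69.7 CPM and 39.0 and 16.8 CPM (-1.31 ± 0.77, adjusted p = 0.28) and Nanog at 15.1 and 13.4 CPM and 10.1 and 2.23 CPM (-1.56 ± 0.64, adjusted p = 0.14), both lower in each 48h library than in either 24h library, yet far apart between the 48h duplicates and not called. Utf1, a chromatin-bound factor whose start-site window is given above, fell from 228 and 342 CPM to 54.3 and 49.1 CPM (-2.43 ± 0.39, adjusted p = 0.00905), and the 48h duplicates were close to each other. Threonine dehydrogenase (Tdh) fell from 27.4 and 47.2 CPM to 9.80 and 5.79 CPM (-2.25 ± 0.48, adjusted p = 0.0217) and Zfp57, which guards imprints, from 40.4 and 50.9 CPM to 21.1 and 16.7 CPM (-1.27 ± 0.21, adjusted p = 0.00962). In the other direction Sall4, a zinc finger factor, was at 248 and 188 CPM and then 370.3 and 395 CPM (0.82 ± 0.17, adjusted p = 0.0193), under the 2-fold limit, and Lin28a, an RNA-binding protein gene, at 145 and 109.6 CPM and then 208 and 178 CPM (0.61 ± 0.28, adjusted p = 0.182), and neither was called.

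Of 20 naive pluripotency genes 2 were called higher and 2 lower, against 5.58% and 5.07% of all genes tested, with a median of -0.29. Esrrb, an orphan nuclear receptor, fell from 19.2 and 18.3 CPM to 8.86 and 8.69 CPM (-1.09 ± 0.19, adjusted p = 0.0113), and Nr0b1 from 12.8 and 23.7 CPM to 6.25 and 4.54 CPM (-1.72 ± 0.44, adjusted p = 0.038). Dppa3, a maternal factor that protects against demethylation, rose from 9.54 and 13.0 CPM to 37.1 and 24.7 CPM (1.44 ± 0.27, adjusted p = 0.0143), which is above its ES level of 20.7 and 15.6 CPM, and was at 0.0487 and 0.0473 CPM in iXEN. Esrrb and Dppa3 were not called in the fit of all 20 libraries, nor Nr0b1 without the 5% of cells with the most UMIs. The LIF receptor Lifr rose from 10.00 and 8.61 CPM to 17.8 and 27.4 CPM (1.25 ± 0.20, adjusted p = 0.00965). The groups of these 4 genes did not overlap. Klf4 (106 and 70.7 CPM, then 159 and 100.0 CPM; 0.54 ± 0.23) and Zfp42 (170.4 and 187 CPM, then 178 and 161 CPM; -0.08 ± 0.22) were not called, and their groups overlapped. Of the 12 formative genes, 2 were called lower with a median of -1.32, Pou3f1 (8.78 and 5.15 CPM, then 3.38 and 0.787 CPM; -2.00 ± 0.54, adjusted p = 0.0441) and Sox4 (17.9 and 14.8 CPM, then 10.5 and 2.42 CPM; -1.66 ± 0.39, adjusted p = 0.0296), neither of which was called without the replicate block. Fgf5 and Otx2, which mark the exit from naive pluripotency, were at 2.00 CPM or less in all 4 libraries and were not called, nor was the DNA methyltransferase Dnmt3b (124 and 69.3 CPM, then 67.6 and 62.6 CPM; -0.51 ± 0.24, adjusted p = 0.18).

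**Figure D4:**
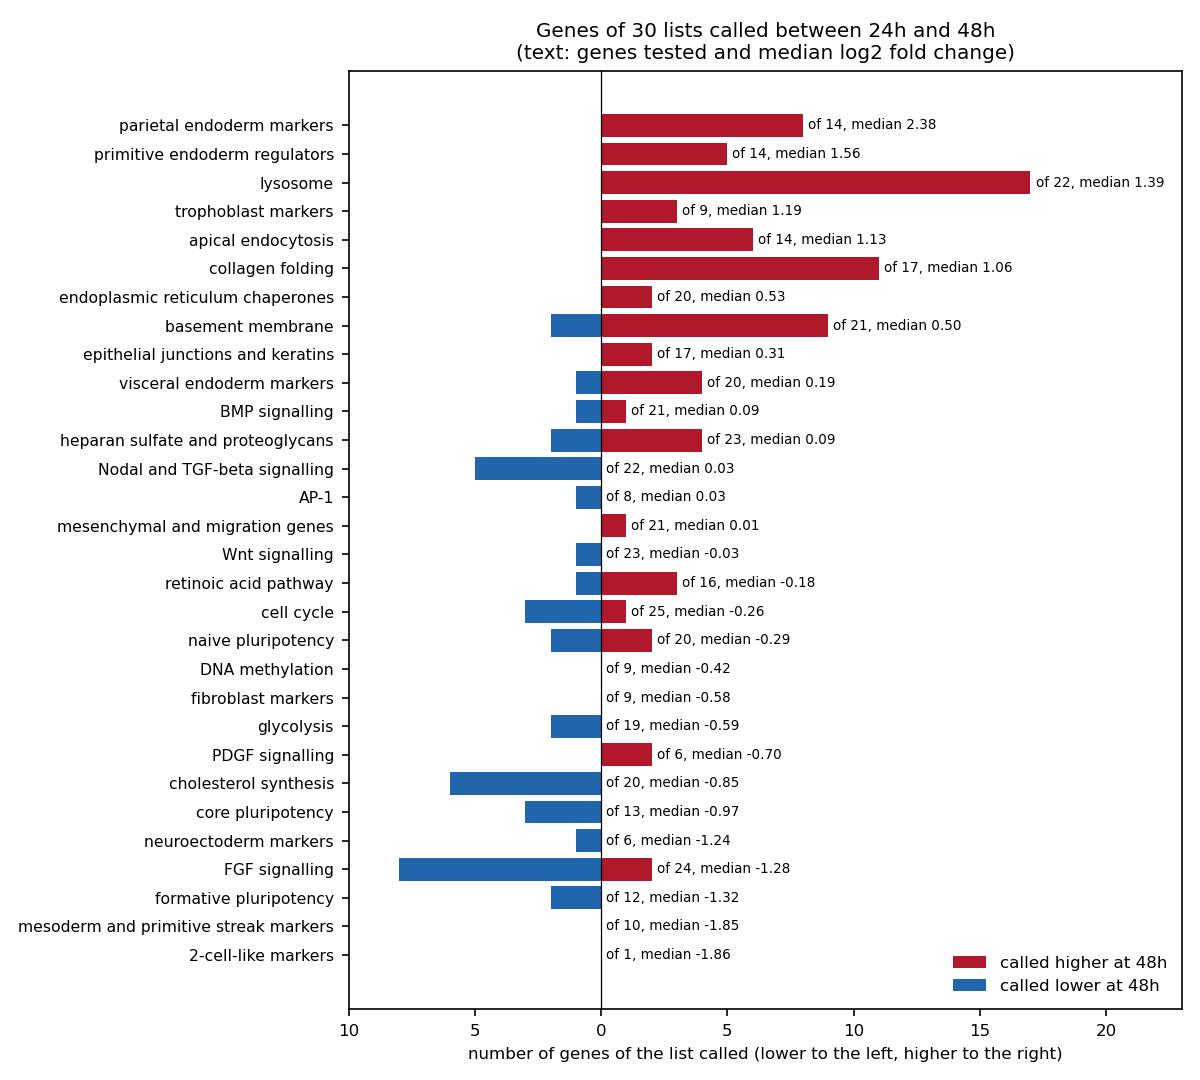
Bars give for each of the 30 gene lists the number of genes called higher (red, to the right) and lower (blue, to the left) at 48h, on an x axis of gene counts, with lists on the y axis ordered by median log2 fold change. The text at each bar gives the genes tested and the median. The lysosome, collagen folding, basement membrane and parietal endoderm lists hold the most increases (17, 11, 9 and 8) and FGF signalling and cholesterol synthesis the most decreases (8 and 6).

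In FGF signalling several genes known as ERK targets fell. Of 24 genes of the pathway, 8 were called lower and 2 higher, against 5.07% and 5.58% of all genes tested, with a median of -1.28. Fgf4, the epiblast ligand, had already been low at 24h (3.25 and 4.22 CPM, against 57.0 and 65.3 CPM in ES) and was at 2.30 and 0.350 CPM at 48h without passing the test (-1.88 ± 0.62, adjusted p = 0.0789). Fgfr2, a receptor of primitive endoderm, was at 13.6 and 6.12 CPM and then 17.9 and 14.6 CPM (0.82 ± 0.25, adjusted p = 0.0625). Fgf10 rose from 14.3 and 11.7 CPM to 47.4 and 46.3 CPM (1.86 ± 0.19, adjusted p = 0.00243) and Frs2, the adaptor that links FGF receptors to ERK, from 9.17 and 9.12 CPM to 21.5 and 22.0 CPM (1.25 ± 0.16, adjusted p = 0.00434), both with close duplicates. The ligand Fgf15 was called lower at under 1 CPM, from 0.412 and 0.316 CPM to 0.0567 and 0.0375 CPM (adjusted p = 0.0468), and lost its call with all 20 libraries and without the cells with the most UMIs.

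Among the genes that ERK signalling is known to induce, Dusp6, an ERK phosphatase, fell from 11.6 and 13.0 CPM to 1.25 and 0.562 CPM (-3.85 ± 0.40, adjusted p = 0.00243). The ETS factors Etv4 and Etv5 fell from 43.2 and 57.6 CPM to 5.87 and 5.38 CPM (-3.15 ± 0.63, adjusted p = 0.0177) and from 50.4 and 43.0 CPM to 11.4 and 3.48 CPM (-2.88 ± 0.37, adjusted p = 0.0045). The feedback inhibitor Spry4 fell from 21.6 and 11.9 CPM to 2.02 and 1.85 CPM (-3.05 ± 0.25, adjusted p = 0.00201). Every 48h library was below every 24h library in these 4 genes, and the values of Dusp6 in the 48h libraries were also below the 29.0 and 36.0 CPM of ES and the 19.0 and 33.6 CPM of iXEN. Spry1, Spred1 and Dusp4, further inhibitors of the pathway, were called lower with log2 fold changes of -1.99 ± 0.29, -1.93 ± 0.19 and -1.72 ± 0.16. Other ERK targets of the list were not called: Spry2 was at 259.7 and 255 CPM and then 109 and 96.9 CPM (-1.33 ± 0.48, adjusted p = 0.102), and Etv1 and Spred2 had log2 fold changes of -2.17 ± 0.79 and -0.92 ± 0.30 (adjusted p = 0.103 and 0.0736). The immediate early gene Egr1, at 7.73 and 1.86 CPM and then 21.8 and 2.50 CPM, was above 0 (1.00 ± 0.46, adjusted p = 0.181), and its groups overlapped. Of the 6 genes of PDGF signalling, Pdgfra and the ligand Pdgfd, which stayed under 1 CPM, were called higher, against 5.58% of all genes tested. The median was -0.70 over the list, and the ligand Pdgfa was at 57.6 and 68.3 CPM and then 51.6 and 46.0 CPM (-0.37 ± 0.15, adjusted p = 0.136).

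**Figure D5:**
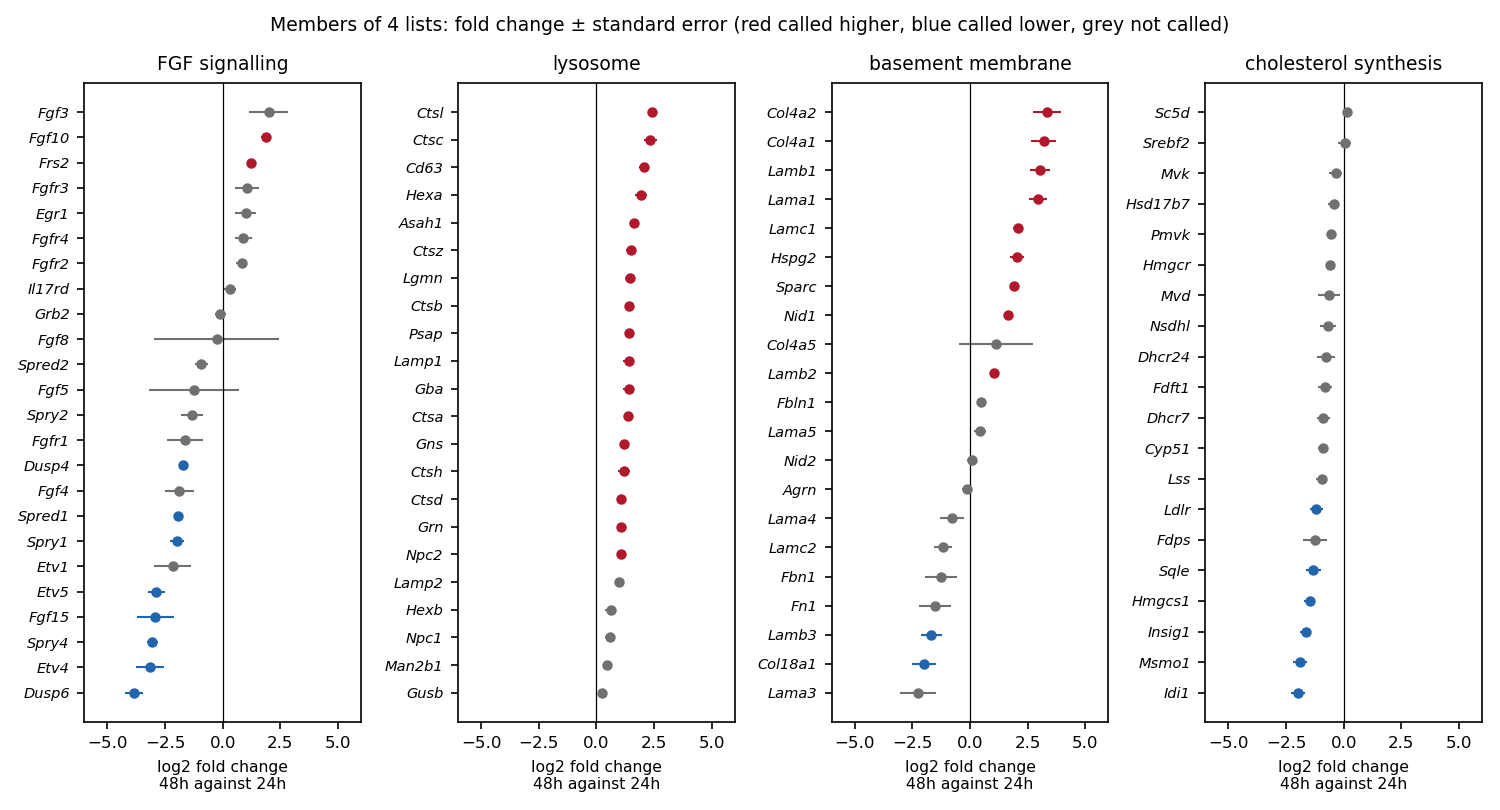
The 4 panels show the members of the FGF signalling, lysosome, basement membrane and cholesterol synthesis lists on the y axis, with the log2 fold change of 48h against 24h on the x axis. Points are fitted values and bars ± 1 standard error, in red where called higher, blue where called lower and grey where not called. Every lysosomal point lies right of 0, the ERK targets Dusp6, Etv4 and Spry4 are at the far left of their panel, and 18 of the 20 cholesterol genes lie left of 0.

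In Nodal and TGF-beta signalling the called genes were antagonists, a ligand and transcriptional regulators, and all were lower. Of 22 genes of this list, 5 were called lower, against 5.07% of all genes tested, with a median of 0.03. Nodal itself was at 9.79 and 9.04 CPM and then 2.34 and 0.437 CPM (-3.13 ± 1.00, adjusted p = 0.0716), lower in each 48h library but not called. Its antagonist Lefty2 fell from 148 and 307 CPM to 9.16 and 4.39 CPM (-5.06 ± 0.96, adjusted p = 0.0148) and Lefty1 from 86.4 and 126 CPM to 14.2 and 16.5 CPM (-2.77 ± 0.44, adjusted p = 0.00905). These paralogs are near-identical and neighbours on chromosome 1, so that reads may be divided between them. At 24h both stood above their ES levels (47.0 and 34.7 CPM and 28.7 and 25.2 CPM), and at 48h below them. Skil, a repressor of SMAD signalling, fell from 49.9 and 41.5 CPM to 23.6 and 11.4 CPM (-1.47 ± 0.26, adjusted p = 0.0132), and the ligand Tgfb1 from 8.63 and 2.76 CPM to 2.40 and 0.437 CPM (-2.20 ± 0.28, adjusted p = 0.00435; not called without the replicate block).

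BMP ligands moved in opposite directions. Bmp2 rose from 1.55 and 0.399 CPM to 20.1 and 22.0 CPM (4.60 ± 0.78, adjusted p = 0.0112), and Bmp4 fell from 7.67 and 26.2 CPM to 1.15 and 2.50 CPM (-3.09 ± 0.79, adjusted p = 0.0374), with no overlap between the times in either gene. They were the 2 called genes of 21 in the BMP list, whose median was 0.09. Of 23 Wnt genes 1 was called, the receptor Lgr4, and for both lists the share called was under the 10.7% of all genes tested. Lgr4 fell from 16.6 and 18.2 CPM to 8.80 and 6.89 CPM (-1.16 ± 0.20, adjusted p = 0.011), with a median of -0.03 over the list. In the retinoic acid pathway 3 of 16 tested genes were called higher and 1 lower, against 5.58% and 5.07% of all genes tested, with a median of -0.18. Cyp26b1, which degrades retinoic acid, rose from 0.491 and 0.366 CPM to 5.84 and 5.76 CPM (3.76 ± 0.38, adjusted p = 0.00237), and was at no more than 0.491 CPM in any library of the other 4 conditions.

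Among epithelial, mesenchymal and cell-surface genes the shares called were not all above the 10.7% of all genes tested. Of 17 junction and keratin genes, 2 were called higher, with a median of 0.31: Krt8, a keratin of simple epithelia (27.2 and 37.9 CPM, then 84.8 and 112 CPM; 1.6 ± 0.38, adjusted p = 0.0292), and the desmosomal protein gene Dsp (2.85 and 1.20 CPM, then 12.3 and 12.1 CPM; 2.69 ± 0.43, adjusted p = 0.00905). E-cadherin (Cdh1) was at 50.8 and 54.7 CPM and then 70.5 and 60.9 CPM (0.31 ± 0.34, adjusted p = 0.577), and N-cadherin (Cdh2) at 5.28 and 1.05 CPM and then 1.25 and 0.1997 CPM, and neither was called. Of 21 mesenchymal genes 1 was called, a share under that of all genes, the integrin Itgb5, rising from 8.65 and 8.11 CPM to 19.2 and 17.9 CPM (1.14 ± 0.21, adjusted p = 0.0141), and the median was 0.01. In the heparan sulfate list 4 of 23 genes were called higher and 2 lower, with a median of 0.09. The sulfotransferase Hs3st1 had the largest change, from 3.48 and 0.349 CPM to 59.5 and 126 CPM (5.91 ± 1.07, adjusted p = 0.0133), and Hs3st3b1 rose as well, to 3.66 and 5.41 CPM. Of the syndecans, Sdc4 rose from 234 and 261 CPM to 481 and 523 CPM (1.02 ± 0.13, adjusted p = 0.00464) and Sdc1 fell from 7.22 and 7.84 CPM to 2.42 and 1.62 CPM (-1.93 ± 0.25, adjusted p = 0.00436). Sdc4, just past the 2-fold limit, was not called with RLE or DESeq2.

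Genes of cholesterol synthesis were mostly lower at 48h. Of 20 genes, 6 were called lower, against 5.07% of all genes tested, and 18 were below 0, with a median of -0.85. Hmgcs1, which makes HMG-CoA, fell from 54.2 and 89.2 CPM to 20.7 and 29.8 CPM (-1.48 ± 0.23, adjusted p = 0.00874), and the isoprenoid isomerase Idi1 from 23.8 and 39.6 CPM to 6.14 and 9.70 CPM (-1.99 ± 0.30, adjusted p = 0.00734). The sterol oxidase Msmo1 fell from 37.7 and 92.2 CPM to 11.8 and 21.1 CPM (-1.90 ± 0.29, adjusted p = 0.00792), as did Insig1, a sterol sensor, from 22.5 and 47.9 CPM to 7.48 and 14.6 CPM (-1.65 ± 0.25, adjusted p = 0.00729). In all 4 genes the replicate 2 library was above the replicate 1 library at both times, and the groups did not overlap. The letters TCACNCCAC, a sterol regulatory element, searched on both strands, were in 1 of 17 RefSeq windows of the list, that of Hmgcs1, and in 1.25% of windows of genes tested and 1.24% of all windows. The Hmgcs1 window (chr13:119690101-119690400, plus strand) is shown as the example, chosen after the values were seen, with the match in capitals 137 bases before the start site.
Hmgcs1: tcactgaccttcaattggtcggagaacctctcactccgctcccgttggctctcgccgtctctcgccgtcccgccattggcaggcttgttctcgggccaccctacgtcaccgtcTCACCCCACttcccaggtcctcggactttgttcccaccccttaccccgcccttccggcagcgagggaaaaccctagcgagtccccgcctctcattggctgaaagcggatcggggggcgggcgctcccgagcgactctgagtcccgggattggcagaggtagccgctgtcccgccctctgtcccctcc

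Of 19 glycolysis genes 2 were called lower, a share near that of all genes tested, with a median of -0.59: the lactate transporter Slc16a3 (27.4 and 42.8 CPM, then 7.35 and 6.67 CPM; -2.29 ± 0.38, adjusted p = 0.0105) and the phosphofructokinase Pfkp (10.6 and 26.2 CPM, then 5.95 and 3.42 CPM; -1.89 ± 0.46, adjusted p = 0.0324). Slc16a3 was not called with all 20 libraries. Of 25 cell cycle genes 1 was called higher and 3 lower, against 5.58% higher and 5.07% lower over all genes tested, with a median of -0.26. Among the D cyclins, Ccnd1 fell from 49.99 and 30.4 CPM to 8.29 and 3.25 CPM (-2.91 ± 0.65, adjusted p = 0.0247), and Ccnd2 rose from 2.25 and 0.415 CPM to 13.7 and 22.8 CPM (3.96 ± 0.65, adjusted p = 0.01), towards its 306 and 315 CPM in iXEN. Ccnd3 was not called. Cyclin E1 (Ccne1) fell from 125 and 50.1 CPM to 42.4 and 36.1 CPM (-1.02 ± 0.23, adjusted p = 0.0275) and the cyclin-dependent kinase inhibitor Cdkn1c from 25.9 and 14.3 CPM to 9.77 and 2.10 CPM (-2.06 ± 0.36, adjusted p = 0.0124), and both were not called without the replicate block. Neither the levels of Ccnd1 nor those of Ccnd2 overlapped between the times.

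The remaining decreases among well-expressed genes were spread over functions. Chchd10, a mitochondrial protein gene, fell from 693 and 871 CPM to 186 and 139 CPM (-2.27 ± 0.20, adjusted p = 0.00204) and was 1 of the 23 genes still called without the 24h library of replicate 2. The glutamate transporter Slc1a3 was at 111 and 57.0 CPM and then 22.7 and 18 CPM (-1.98 ± 0.18, adjusted p = 0.00236), and it also kept its call in that setting. The ubiquitin ligase gene Mkrn1 fell from 717 and 989 CPM to 289.7 and 195 CPM (-1.82 ± 0.39, adjusted p = 0.0217) and the imprinted gene Phlda2 from 80.2 and 136 CPM to 43.7 and 17.0 CPM (-1.94 ± 0.51, adjusted p = 0.0416). Among the increases, Pdcd4, an inhibitor of translation, rose from 84.4 and 86.8 CPM to 638 and 427 CPM (2.61 ± 0.37, adjusted p = 0.00608), and its log2 difference was larger in replicate 1 (2.90) than in replicate 2 (2.29). The secreted protease Htra1 rose from 16.6 and 13.6 CPM to 55.2 and 119 CPM (2.43 ± 0.46, adjusted p = 0.015) and Pcbd1, a cofactor of HNF1 factors, from 22.7 and 23.2 CPM to 110.4 and 119 CPM (2.32 ± 0.31, adjusted p = 0.00506).

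Markers of other cell types that the cultures could hold stayed low, with 1 exception. Of 9 tested trophoblast genes 3 were called higher, against 5.58% of all genes tested, with a median of 1.19. The list's sum went from 23.6 and 28.3 CPM at 24h to 76.4 and 67.3 CPM at 48h. Gata3 rose from 0.459 and 0.0831 CPM to 11.8 and 11.9 CPM (5.62 ± 0.87, adjusted p = 0.00808) and Plac1, which also marks other extraembryonic tissue, from 0.317 and 0.0831 CPM to 7.69 and 8.64 CPM (5.44 ± 0.79, adjusted p = 0.00643). Cdx2, the defining factor of trophoblast, was at 0.380 and 0.249 CPM and then 1.51 and 1.30 CPM (2.17 ± 0.61, adjusted p = 0.0485), had been at 2.39 and 0.696 CPM in ES, and lost its call with RLE scaling, with all 20 libraries and without the cells with the most UMIs. The part of any trophoblast-like cells in these values was not tested. Of 10 mesoderm and 9 fibroblast genes, with medians of -1.85 and -0.58, edgeR called 0 in either direction, against 1 gene of each list lower at an unadjusted p under 0.05 and 1 of each lower by DESeq2. The 1 neuroectoderm gene called was Neurod1, which fell from 2.36 and 0.980 CPM to 0.416 and 0.112 CPM, and of the 2-cell-like markers 1 of 11 could be tested and was not called.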

How the data were processed

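Droplet single-cell RNA-seq of 2 libraries at 24h and 2 at 48h of Gata4 induction was compared. Per the labels and the study's methods, the authors prepared 10x 3′ v2 libraries, processed reads with SEQC (version and annotation not given in the sources used here) against GRCm38, and removed cells with over 20% mitochondrial molecules. The deposited values are whole UMI counts per gene and cell, not normalized. The authors aligned their replicates with a mutual-nearest-neighbour correction that was not applied here.

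Counts were summed per library over cells with at least 500 genes, with no doublet call, and genes placed with GENCODE M21. The 10 libraries of ES-to-iXEN conversion were fitted with edgeR 4.0.16 in R 4.3.3 (limma 3.58.1; TMM, filterByExpr, condition plus sequencing project as a block, quasi-likelihood test, Benjamini-Hochberg adjustment, 4 residual degrees of freedom). A gene was called where the adjusted p was under 0.05 and the change at least 2-fold. Per the labels, replicate 1 of 24h and of 48h are of one sequencing project and replicate 2 of both of another, while in ES, 9h and iXEN both duplicates are of the same project. Same-numbered 24h and 48h libraries deviated together, with a correlation of 0.410 across genes. Thinning, tables and figures used numpy 2.4.6, pandas 2.3.3, scipy 1.17.1 and matplotlib 3.10.9 in python 3.11.15. The procedure was also run on counts simulated from the same fitted model. Such counts cannot show whether the spread shared by all conditions suits the 24h and 48h libraries. Alternatives were no block, other sets of libraries, RLE, DESeq2 1.42.0, no filter, other cell filters and each library left out.

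Total UMIs per library were 57856321 to 87391119, and counts cover counting error only. The members and the 30 gene lists (476 genes, 457 tested, 121 called) were chosen with earlier results of these data known, so that a list's count is a description. Genes named were the 14 largest increases and 14 largest decreases among called genes of 50 CPM or more (predicted genes and Rik symbols left out), up to 4 called genes per list with at least 5 CPM in 1 library, and defining members. Other genes were named after their values were seen. Sequences are from RefSeq (GRCm38.p6).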

Additional observations from a re-analysis of the deposited data

How the results depend on the processing

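The direction of every named gene that was called held under all alternatives. All of them moved the same way in both replicate pairs and every alternative reuses these libraries, so that this outcome was favoured in advance. With all 4 libraries and the block kept, between 1583 and 2050 genes were called: 1583 in a fit of these 4 libraries alone, 1595 with all 20 libraries, 1668 with RLE, 1691 without a filter on low counts, 1691 with all barcodes, 1678 with at least 1000 genes per cell, 1731 without the 5% of cells with the most UMIs and 2050 with DESeq2, which shifted the balance to 943 higher and 1107 lower. RLE and DESeq2 moved the median log2 fold change to -0.02. Of 109 called genes named in the text these settings kept between 99 (all 20 libraries) and 109. Without the replicate block 1507 genes were called (843 higher, 664 lower), and 101 of the named genes kept the call, all but Bex1, Pou3f1, Sox4, Tgfb1, Ccne1, Cdkn1c, Col18a1 and Atf3. Fabp3-ps1, Fam25c, Esrrb, Dppa3, Fgf15, Sox4, Slc16a3, Cdx2, Col18a1 and Lamb3 lost it with all 20 libraries, Sdc4 and Lamb3 with DESeq2, Sdc4 and Cdx2 with RLE, Nr0b1, Fgf15 and Cdx2 without the cells with the most UMIs, Sdc4, Lamb3 and Atf3 in the fit of these 4 libraries alone, and Lamb3 without a filter on low counts. Without the pairing in the 4 libraries alone, an alternative chosen after seeing the data, 565 were called (399 higher, 166 lower), and 70 of the named genes. Leaving out 1 library gave between 3 and 1223 calls, with 3 to 616 higher and 0 to 611 lower. The fits without the 24h or the 48h library of replicate 2 kept few of the named genes, and those without a replicate 1 library most of them. With the block, both fits of either kind compare only the complete replicate pair, so that they are the same comparison. No 24h or 48h library then adds to the estimate of the spread, and these libraries are assumed to vary like the other conditions. Calls in the 30 lists numbered 121 in all, 156 with DESeq2, 112 without the block and 4 and 2 without the replicate 2 libraries. Primitive endoderm regulators called higher numbered 5, against 9 with DESeq2 and 10 with all 20 libraries. Over the 10 settings that kept all 4 libraries, 516 of 600 list counts stayed within 1.5 times their value. A count of 0 that stayed at 0 is included, and many lists had 0 genes called in a direction. The figure thus says little about the other counts. The cause of the dependence on replicate 2 was not tested. Thinning to 1000 UMIs made the shares of cells smaller and moved the Pou5f1 difference from -2.62 to 0.05 percentage points, the 1 change of sign among the shares given. Duplicates at 24h and 48h differed from each other by a standard deviation of 0.465 and 0.475 on the log2 scale. The values were 0.271 in ES, 0.0764 at 9h and 0.513 in iXEN, whose libraries enter the shared estimate of the spread. Depth limits genes under about 1 CPM, which rest on few UMIs.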

Other observations

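A group of genes was higher at 48h than in any other condition of the conversion, and was picked for that after the values were seen. Acsf2, an acyl-CoA synthetase, rose from 5.07 and 8.21 CPM at 24h to 39.6 and 79.2 CPM at 48h (3.12 ± 0.21, edgeR adjusted p = 0.00128) and was at 6.25 and 8.67 CPM in iXEN. Pdlim4, a cytoskeletal adaptor, rose from 6.04 and 11.5 CPM to 54.2 and 121 CPM (3.28 ± 0.28, adjusted p = 0.00204), with 6.72 and 3.59 CPM in iXEN. Sord, sorbitol dehydrogenase, rose from 3.77 and 6.55 CPM to 33.9 and 71.2 CPM (3.31 ± 0.17, adjusted p = 0.000871), with 19.7 and 21 CPM in iXEN, and it was called under every alternative. Mgst3, a microsomal glutathione transferase, rose from 92.7 and 142 CPM to 443 and 637 CPM (2.21 ± 0.16, adjusted p = 0.0019), with 101 and 123 CPM in iXEN. In all 4 genes the lower 48h library exceeded the other 8 libraries of the conversion. Cyp4f14, the largest increase among well-expressed genes, was at 0 and 0.0473 CPM in iXEN.

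Some genes of serine synthesis and mitochondrial one-carbon metabolism, also picked after the values were seen, were called lower at 48h. Of 11 genes listed for these and related amino acid pathways 4 were called lower, against 5.07% of all genes tested, with a median of -0.42. Psat1, a transaminase of serine synthesis, fell from 125 and 169.6 CPM to 58.7 and 47.7 CPM (-1.46 ± 0.20, adjusted p = 0.00509), and Psph, the phosphatase of its last step, from 80.2 and 66.9 CPM to 38.5 and 32.6 CPM (-1.05 ± 0.13, adjusted p = 0.00402). Shmt2, which passes the carbon of serine to folate, fell from 40.0 and 56.9 CPM to 19.3 and 23.9 CPM (-1.15 ± 0.24, adjusted p = 0.0205), and the folate enzyme Mthfd2 from 87.5 and 103 CPM to 28.4 and 24.6 CPM (-1.85 ± 0.19, adjusted p = 0.00243). Phgdh, the first enzyme of serine synthesis, was not called and its groups overlapped (49.6 and 91.3 CPM, then 41.6 and 60.6 CPM; -0.42 ± 0.22, adjusted p = 0.223), nor were Shmt1 (-0.21 ± 0.16), Mthfd1l (-0.31 ± 0.27), Mthfd1 (0.13 ± 0.27) and the others of the list. In the 4 called genes both 48h libraries were below both 24h libraries, and Psph moved by nearly the same step in both replicate pairs.

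Some immediate early genes followed the replicate number more than the time. Fos was at 33.9 and 3.66 CPM at 24h and 117 and 3.80 CPM at 48h, and Fosb at 16.8 and 0.0499 CPM and 56.3 and 0.399 CPM, with replicate 1 above replicate 2 at both times. Neither gene was called, and of the 8 genes of the AP-1 list 1 was, Atf3, which fell from 3.37 and 1.66 CPM to 1.53 and 0.587 CPM (-1.31 ± 0.28, adjusted p = 0.0227). That share is near the 10.7% called over all genes tested, and Atf3 was not called without the replicate block. Of 9 DNA methylation genes edgeR called 0, DESeq2 called 0, and at an unadjusted p under 0.05 there were 2 higher and 3 lower.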
